A study of Mus musculus with 13 samples.

Results

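Hearts of R502W mice that had received mavacamten were compared with hearts of untreated wild-type (WT) mice, to describe which transcripts differed from WT while the drug was given. The libraries were chosen by the genotype and treatment in their labels: 4 libraries of R502W mice on mavacamten against 5 libraries of WT controls, 9 of the 13 libraries of the series. The other 4 libraries came from untreated R502W mice and are given beside these values. R502W is an amino acid change in cardiac myosin-binding protein C, encoded by Mybpc3. Mavacamten was given in drinking water at 2.5 mg/kg/day for 21 weeks, and no WT mouse received it, so genotype and drug changed together between the groups and cannot be told apart here. The series' design text gave an age of 24 weeks at sequencing, whereas the extraction protocol spoke of 3 and 18 weeks. No age of a single library was given there. Strain background, sex and whether the mutation was on 1 or both alleles were not given in the labels read here, and the RNA level of Mybpc3 does not check a missense label. Each library was made from whole heart as poly(A)-selected, strand-specific RNA-seq. Whether the libraries of a group came from separate mice was not stated, and the p-values then measure only the spread between these libraries, which may be technical.

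Cardiac myosin-binding protein C sits on the thick filament and restrains the number of myosin heads that can engage actin. Mavacamten is a small molecule that inhibits cardiac myosin and lowers the force of contraction. A ventricle under load usually turns on a stress programme, in which the slow myosin Myh7, skeletal actin Acta1, natriuretic peptides and stretch-responsive proteins of the Z-disc rise, and mouse hearts show it against a background of almost pure fast myosin, Myh6.

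Total expected counts per library were 15420572 to 18218396 in WT control, 15350601 to 19361104 in R502W control and 16001657 to 17520705 in R502W mavacamten. Some libraries stood apart. WT control replicate 2 carried genes of thymus and T cells, and WT control replicates 2 and 3 and R502W mavacamten replicate 1 carried airway genes. The immunoglobulin genes Ighm and Igkc were high in more libraries. In WT control replicates 2, 3 and 4 Ighm was at 282, 68.2 and 179 CPM and Igkc at 363, 262 and 84.0 CPM. In R502W mavacamten replicates 1 and 4 Ighm was at 46.2 and 110 CPM and Igkc at 55.3 and 69.8 CPM. The other libraries had at most 17.9 CPM of Ighm and 5.72 CPM of Igkc. R502W mavacamten replicate 4 carried a strong interferon response and airway genes at a lower level. Summed over the 5 measured airway genes it had 32.4 CPM. WT control replicates 2 and 3 and R502W mavacamten replicate 1 had 174 to 682 CPM, and the rest at most 4.77 CPM. Bmp10, a growth factor of the right atrium, was at 387, 497, 8.33, 631 and 307 CPM (counts relative to the TMM-scaled library size, on the usual CPM scale) in the WT libraries and 497, 639, 6.23 and 569 CPM in the treated ones, so WT control replicate 3 and R502W mavacamten replicate 3 were low, as was 1 untreated R502W library. Other atrial genes differed in where they were low. The atrial myosin light chain Myl7 was at 513, 1064, 1243, 839 and 661 CPM in WT and 692, 353, 434 and 536 CPM in treated hearts, highest in WT control replicate 3, whereas the atrial secreted protein Dkk3 was at 89.8 CPM in R502W mavacamten replicate 3 and 198 to 296 CPM in the other treated libraries. Nppa and the summed atrial markers (3431 CPM) were also lowest of all 13 libraries in R502W mavacamten replicate 3. Fat markers, summed over 12 genes, ran from 523 to 2136 CPM in WT and from 471 to 2209 CPM in treated hearts. Ucp1, the uncoupling protein of brown fat, was at 138 CPM in R502W mavacamten replicate 4, 102 CPM in WT control replicate 3 and 96.3 CPM in R502W control replicate 1, and at most 15.9 CPM in the others. The part of these tissues in the results was not tested beyond leaving libraries out. In whole-heart RNA, fewer cells of a type and less RNA per cell cannot be told apart.

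Most of what was called different from WT lay above it. Of 15000 genes tested, 889 were higher (5.93%) and 343 were lower (2.29%) in treated R502W hearts at a Benjamini-Hochberg adjusted p under 0.05 in edgeR's quasi-likelihood test, which is what "called", "rose" and "fell" mean below. Of these, 159 changed at least 2-fold (1.06%), 122 upward (0.813%) and 37 downward (0.247%). In both directions together 1232 genes were called (8.21%), and the groups did not overlap in 1064 of them. Among all tested genes, every treated library lay above every WT library in 1281 (8.54%) and below in 569 (3.79%). Rises and falls were ranked among called genes averaging 1 CPM or more whose groups did not overlap. Myh7 and Acta1 were among the 12 largest rises, and the clock genes Ciart, Dbp, Per2 and Per1 among the 12 largest falls.

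**Figure D1:**
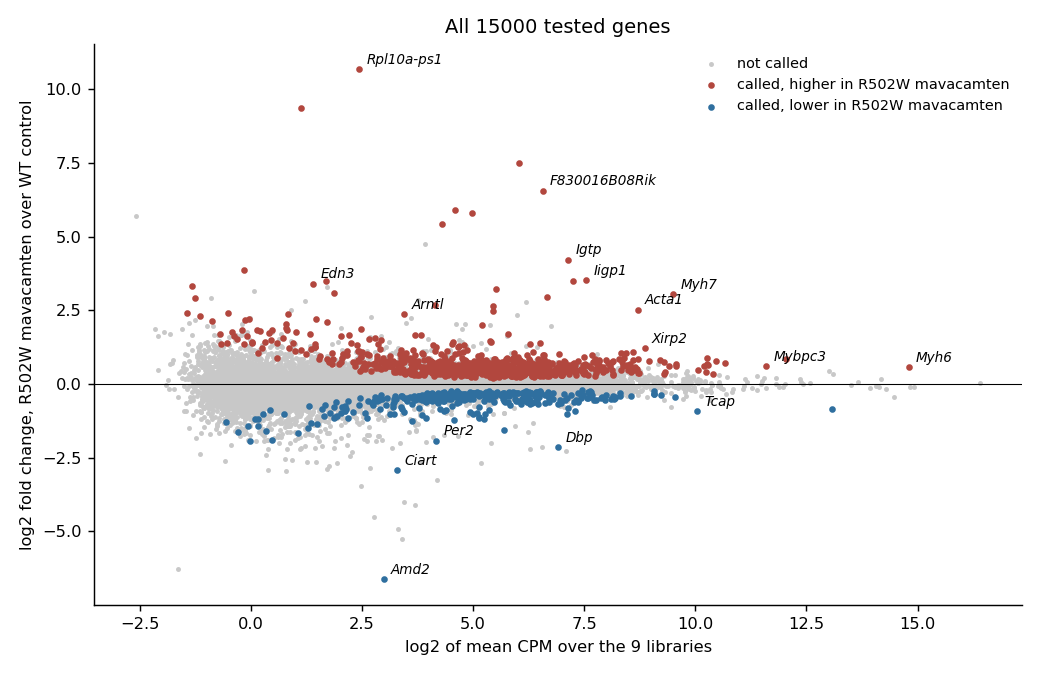
Log2 fold change of R502W mavacamten over WT control against the log2 mean CPM over the 9 libraries, each point 1 of 15000 genes, with the 889 genes called higher in red and the 343 called lower in blue. Myh7 (3.06) and Acta1 (2.52) stand out among abundant genes above the line at 0.

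The count of calls depended on which libraries were present and on transcript length. With scaling by DESeq2-type (RLE) factors the split was 668 higher and 413 lower, 61.8% higher against 72.2% with the main TMM scaling, and DESeq2 itself called 1097 and 749 (59.4% higher). Longer genes tended to be higher in treated hearts (rank correlation of fold change and exonic length 0.364, over 14984 genes that are not independent replicates). In the longest 10th of genes (9739 bp and more) the median log2 fold change was 0.27, with 321 genes called higher and 0 lower, whereas in the shortest 10th (up to 1624 bp) it was -0.18, with 20 higher and 83 lower. Within single libraries the deviation from the mean of all libraries fell with length in all 5 WT libraries (rank correlation -0.421 to -0.0747) and rose with it in all 4 treated (0.113 to 0.226) and all 4 untreated R502W libraries (0.0796 to 0.263). Whether this length dependence is a property of the hearts or of the RNA and libraries was not tested. With the length trend removed from each library, 377 genes were higher (2.51%) and 255 lower (1.7%), a split of 59.7% to higher, and 536 of the 1232 calls were kept in the same direction.

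**Figure D2:**
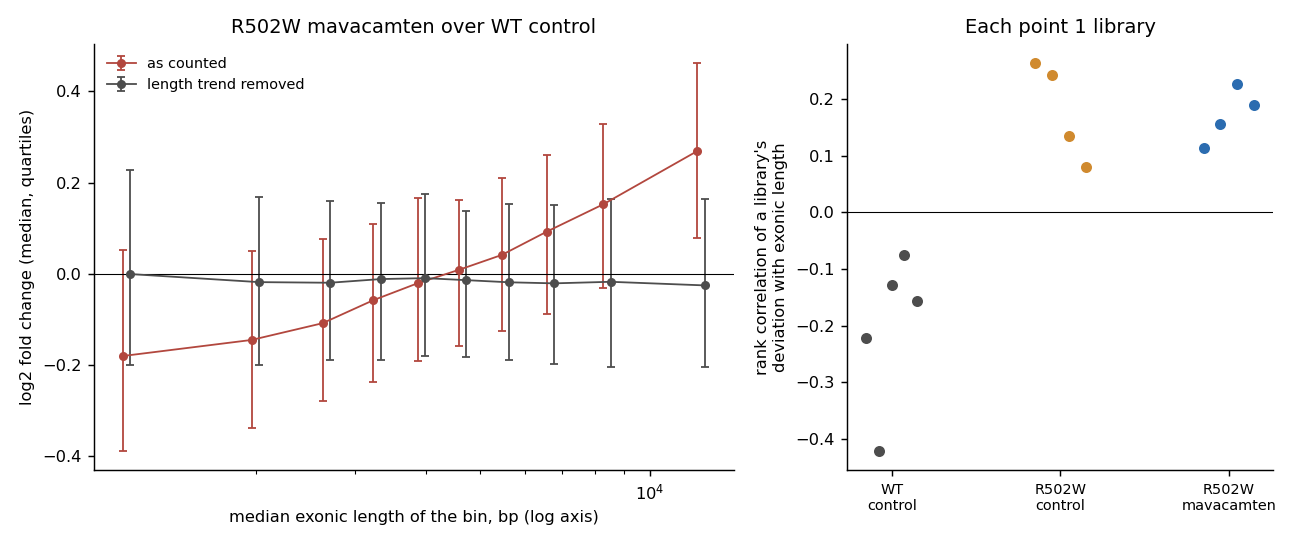
Left, median and quartiles of the log2 fold change of R502W mavacamten over WT control in 10 bins of exonic length (log axis), as counted and with the length trend removed. Right, rank correlation of each library's deviation with exonic length, which is negative in all 5 WT libraries and positive in all 8 R502W libraries.

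When each of the 13 libraries was left out in turn and the whole fit repeated (called left-out runs below), the number of genes called higher ranged from 253, without R502W mavacamten replicate 2, to 797. The number called lower ranged from 106, again without that library, to 416. It was 311 higher and 151 lower without R502W mavacamten replicate 3, 463 and 218 without replicate 1, and 455 and 237 without replicate 4 of that group. Without WT control replicate 3 the numbers were 472 and 216, and without R502W control replicate 2 they were 439 and 277. The lower count alone was 222 without R502W control replicate 1 and 219 without replicate 4 of that group. Without the 3 libraries with low Bmp10 together, 56 genes were called higher and 30 lower. When the fit held only the groups compared (called the 2-group fit below), 142 were higher and 74 lower. In all 13 left-out runs, 290 genes were called in the same direction, 202 higher and 88 lower, and 248 of these (170 higher, 78 lower) were also called with the length trend removed. Genes below belong to this set of 248 unless a change of call is stated.

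The cardiac stress and fetal programme was in part higher on the drug than in WT. Of its 20 measured genes 9 rose and 0 fell, against 5.93% and 2.29% of all genes. The list median was 0.53 against 0.0022 over all genes. By log2 value 13 of the 20 lay above WT, and the lowest was at -1.14. Every treated library lay above every WT library in 7 members and below in 1 (8.54% and 3.79% of all genes). DESeq2 called 9 members higher and 1 lower. With the length trend removed 8 rose, 8 or 9 rose in every left-out run, 5 rose without the 3 libraries with low Bmp10, and 7 in the 2-group fit. Myh7 (ENSMUSG00000053093, chromosome 14, 54970684 to 54994626, GRCm38), the slow myosin heavy chain of the fetal ventricle, was at 158, 167, 114, 206 and 208 CPM in the 5 WT libraries and at 2183, 1451, 599.7 and 1438 CPM in the 4 treated libraries. All treated libraries lay above all WT libraries, and they also spread widely, replicate 3 being the lowest and replicate 1 the highest. The means were 171 ± 38.8 CPM (SD, n = 5) and 1418 ± 647 CPM (SD, n = 4), against 1768 ± 181 CPM (n = 4) in untreated R502W hearts. On the log2 scale treated hearts exceeded WT by 3.06 ± 0.29 (SE), with an edgeR adjusted p of 0.000173. Values given as ± in brackets below are log2 fold changes of treated hearts over WT with their SE.

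Counted per exonic kilobase, Myh7 made up 0.569% ± 0.128 of the Myh6 and Myh7 transcripts in WT (SD, n = 5), 3.27% ± 1.87 in treated hearts (SD, n = 4) and 3.99% ± 0.301 in untreated R502W hearts (SD, n = 4). The treated libraries ran from 1.15% to 5.66%, and none overlapped WT (0.423% to 0.712%). A 2-sided exact permutation test gave p = 0.0159 against WT, the smallest that 126 arrangements allow (0.0317 after adjustment over the 2 comparisons). Against untreated R502W hearts it gave p = 0.514 (exact permutation test, 70 arrangements, adjusted 0.514). Myh6, the fast myosin that dominates the adult mouse ventricle, was itself 0.57 ± 0.16 higher (edgeR adjusted p = 0.0447). That call ended with the length trend removed (0.46) and in 11 of 13 left-out runs, all but those without WT control replicate 1 or R502W mavacamten replicate 1 (range 0.46 to 0.62).

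Acta1 (ENSMUSG00000031972, chromosome 8, 123891769 to 123894751), skeletal α-actin, was at 120.3, 106, 174, 117 and 158 CPM in WT and at 1390.1, 611, 471 and 621 CPM in treated hearts. Replicate 1 of the treated group was within the range of untreated R502W hearts (1368, 1463, 1230.5 and 1243 CPM), and the other 3 treated libraries were below it but far above WT. Treated hearts exceeded WT by 2.52 ± 0.27 (edgeR adjusted p = 0.000297). The window from 250 bases before to 50 bases after the transcription start of Acta1 is shown because it holds a CArG box, the letters that serum response factor recognises, and an M-CAT element (CATTCC on either strand), the letters of TEAD factors, in capitals and without overlap (RefSeq, GRCm38.p6, chr8:123894726-123895025, minus strand, written 5′ to 3′ along the gene).
Acta1: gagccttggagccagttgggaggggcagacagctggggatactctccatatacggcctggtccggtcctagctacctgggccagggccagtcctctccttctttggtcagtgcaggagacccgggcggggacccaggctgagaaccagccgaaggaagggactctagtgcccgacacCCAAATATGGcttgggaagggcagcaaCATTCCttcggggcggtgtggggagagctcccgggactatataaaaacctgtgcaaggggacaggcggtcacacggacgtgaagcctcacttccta
A CArG box occurred in 1.63% of 32851 such windows over all genes and CATTCC in 14.7%. Counted per gene, as the members below are, the shares were 1.81% and 16.6%. Of the 9 raised stress genes 8 had a window in the RefSeq table, of which 1 held a CArG box (Acta1) and 4 held CATTCC (Nppb, Myh7, Acta1 and Ankrd1). Among the 11 members not called, 10 had a window, 2 with a CArG box and 3 with CATTCC. A match is a description of letters and not of binding. Srf, which encodes serum response factor, was 0.35 ± 0.0817 higher (edgeR adjusted p = 0.0225). Its call ended without R502W mavacamten replicates 1, 2 or 3 (range 0.28 to 0.39).

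Nppb, which encodes B-type natriuretic peptide, was at 50.004, 86.6, 29.7, 44.8 and 52.2 CPM in WT and 187, 114, 79.9 and 171 CPM in treated hearts (1.39 ± 0.28, edgeR adjusted p = 0.0121). The lowest treated library, replicate 3, was below the highest WT library, so the groups overlapped. Nppa, the atrial natriuretic peptide, did not pass (-0.13 ± 0.26, 2024, 4711, 3087, 2932 and 3206 CPM in WT and 3212, 2675, 1827 and 3972 CPM in treated hearts). Ankrd1, a stretch-responsive repeat protein of the I-band, rose by 0.69 ± 0.18 (edgeR adjusted p = 0.0328). That call was lost in 7 left-out runs, those lacking WT control replicates 1, 3 or 4, R502W control replicate 2 or R502W mavacamten replicates 1, 2 or 4 (range 0.52 to 0.84). The other raised members were Xirp1 and Xirp2, actin-binding proteins of the intercalated disc, Rcan1, an inhibitor of the phosphatase calcineurin, Tnfrsf12a, the receptor of the cytokine TWEAK, and Enah, a promoter of actin assembly. Xirp2 went from 292 ± 50.9 to 682 ± 89.4 CPM (1.22 ± 0.15, edgeR adjusted p = 0.000893), and Rcan1 from 64.97 ± 4.61 to 118 ± 23.6 CPM (0.86 ± 0.16, edgeR adjusted p = 0.00859), with no overlap for either gene. Tnfrsf12a rose by 1.32 ± 0.20. Enah rose by 0.78 ± 0.13, a call lost with the length trend removed (0.37). Gdf15, a stress cytokine (0.44, 0.84, 0.543, 0.525 and 0.252 CPM in WT and 1.86, 0.515, 1.42 and 0.595 CPM in treated hearts), did not pass (edgeR adjusted p = 0.15).

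**Figure D3:**
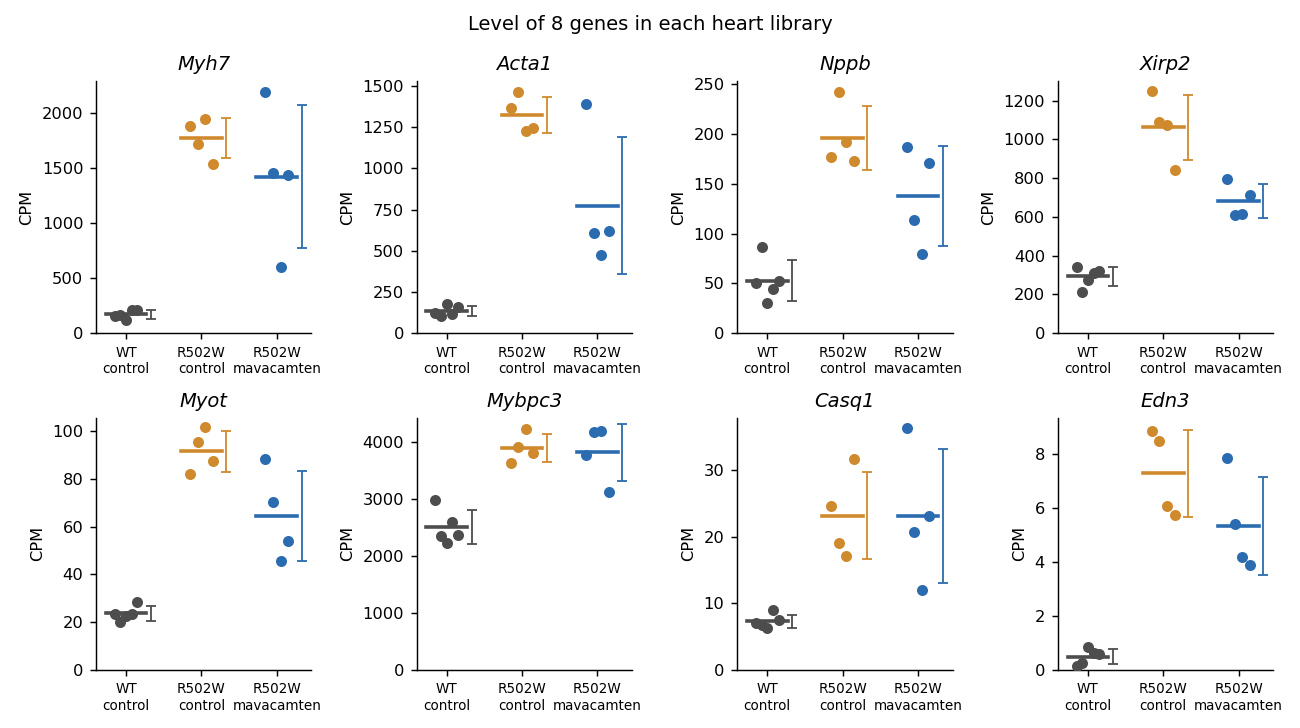
CPM of 8 genes in the 5 WT, 4 untreated R502W and 4 treated R502W libraries, with the group mean as a line and the SD as a bar. For Myh7 the treated libraries lie at 2183, 1451, 599.7 and 1438 CPM, all above WT, and for Nppb the lowest treated library lies below the highest WT library.

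Z-disc and mechanical stress genes, a list that shares Xirp1, Xirp2 and Ankrd1 with the stress programme, were another muscle group with many calls. Of 24 measured genes 11 rose and 1 fell (median 0.36), against the same 5.93% and 2.29% of all genes, and with the length trend removed 8 rose and 1 fell. In the 2-group fit 5 rose, and without the 3 libraries with low Bmp10 4 rose and 0 fell. The number that rose was 7 without WT control replicate 3, R502W control replicate 2 or R502W mavacamten replicate 1, and 6 without R502W mavacamten replicates 2 or 3. Myotilin, Myot, which cross-links actin at the Z-disc, was at 23.5, 20.2, 22.3, 23.4 and 28.4 CPM in WT and 88.4, 70.3, 45.5 and 53.8 CPM in treated hearts (1.45 ± 0.16, edgeR adjusted p = 0.000505). All treated libraries exceeded all WT libraries by a wide gap. Ankrd23, a stretch-responsive relative of Ankrd1, was at 252, 237, 226, 198 and 270.1 CPM in WT and 627, 439.9, 461 and 428 CPM in treated hearts (1.05 ± 0.13, edgeR adjusted p = 0.000893). Filamin C, Flnc, an actin cross-linker of the Z-disc and the sarcolemma, was at 256, 182, 241, 279.9 and 321 CPM in WT and 549, 541, 576 and 522 CPM in treated hearts (1.10 ± 0.14, edgeR adjusted p = 0.00144). Neither gene overlapped between the groups. Plec, the cytoskeletal linker plectin, belonged to no list and was named after its value was seen. It rose by 1.04 ± 0.11 (edgeR adjusted p = 0.000333, 0.65 with the length trend removed).

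The single Z-disc gene that fell was Tcap, telethonin, which caps the ends of titin. It was at 1471, 1288, 1069, 1258 and 1549 CPM in WT and 689.8, 962, 606 and 555 CPM in treated hearts (-0.92 ± 0.16, edgeR adjusted p = 0.00792), every treated library below every WT library. Nexn, an actin-binding protein (0.59 ± 0.13), and Pdlim5, a Z-disc adaptor (0.52 ± 0.12), were called, but not without R502W mavacamten replicates 2 or 3 (ranges 0.47 to 0.66 and 0.42 to 0.58). The call of Pdlim5 also ended with the length trend removed (0.34). The call of Synpo2l, a protein of the Z-disc and dense bodies (0.49 ± 0.14), ended in all left-out runs but the one without R502W mavacamten replicate 2 (0.30 to 0.60) and with the length trend removed (0.47).

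The sarcomere list holds Myh7 and Acta1 as well. In it 9 of 28 genes rose and 0 fell (median 0.18), against 5.93% and 2.29% of all genes. With the length trend removed or without R502W mavacamten replicate 3, 5 rose. Without the 3 libraries with low Bmp10, and also in the 2-group fit, 3 rose. Mybpc3, the gene that carries the mutation (ENSMUSG00000002100, chromosome 2, 91118144 to 91136516), was at 2992, 2359, 2232, 2605 and 2375 CPM in WT and 3782, 4178, 4206 and 3127 CPM in treated hearts. Every treated library exceeded every WT library (0.61 ± 0.12, edgeR adjusted p = 0.0111), and untreated R502W hearts exceeded WT by 0.63. Myom1, an M-band protein that ties myosin filaments together, rose by 0.63 ± 0.12 and was still called with the length trend removed (0.40). Titin, Ttn, whose transcript is the longest of all, showed 0.86 ± 0.20 as counted and 0.0014 with the length trend removed. Its call also ended without WT control replicate 3 or R502W mavacamten replicates 2 or 3 (0.66 to 0.92). Myh7b, a slow-type myosin with a microRNA in its intron, rose by 0.72 ± 0.15, a call lost without R502W mavacamten replicate 3 (0.59 to 0.84). Myom2, another M-band protein (0.40 ± 0.11), lost its call with the length trend removed (0.21) and in 10 left-out runs, all but the 3 lacking WT control replicate 1, WT control replicate 4 or R502W control replicate 4 (0.31 to 0.43). The ventricular light chain Myl2 (0.0039) and cardiac actin Actc1 (0.36, edgeR adjusted p = 0.175) did not pass.

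Calcium handling genes showed 6 rises and 0 falls among 25 (median 0.36), against 5.93% and 2.29% of all genes. With the length trend removed there were 2 rises, in the 2-group fit or without the 3 libraries with low Bmp10 there was 1, and there was 1 without WT control replicate 3 or R502W mavacamten replicates 1, 2 or 3 and 2 without R502W control replicate 2. The rise that held in all of these was Casq1, the calsequestrin of fast skeletal muscle, which buffers calcium in the sarcoplasmic reticulum. It was at 6.97, 6.72, 6.28, 8.92 and 7.4999 CPM in WT and 36.4, 20.8, 12.04 and 23.1 CPM in treated hearts (1.67 ± 0.26, edgeR adjusted p = 0.00411), with no overlap. Fast skeletal myosin genes such as Myh1, Myh2 and Myh4 were at most 0.315 CPM in every library. Jph2, which holds the T-tubule to the sarcoplasmic reticulum (0.49 ± 0.11), kept its call with the length trend removed (0.48) but not without WT control replicate 3 or R502W mavacamten replicates 1, 2 or 3 (0.41 to 0.55). The ryanodine receptor Ryr2 had 0.80 as counted and 0.33 with the trend removed, the sodium-calcium exchanger Slc8a1 0.66 and 0.29, the calcium pump Atp2b1 0.57 and 0.25 and the junctional gene Asph 0.29 and -0.066. None of these 4 was called with the trend removed. All 4 also lost their calls when WT control replicate 3, R502W control replicate 2 or R502W mavacamten replicates 1, 2 or 3 were left out. Asph lost it without R502W mavacamten replicate 4 too, and Ryr2 and Atp2b1 also without that library, R502W control replicates 1, 3 or 4 and 1 further WT library (replicate 4 for Ryr2, replicate 1 for Atp2b1). Over the left-out runs the ranges were 0.60 to 0.88 for Ryr2, 0.50 to 0.74 for Slc8a1, 0.40 to 0.66 for Atp2b1 and 0.23 to 0.31 for Asph. The calcium pump Atp2a2 (0.081) and its inhibitor Pln (-0.0016) did not pass, with edgeR adjusted p of 0.799 and 0.997. Of 29 ion channel and intercalated disc genes 3 were called higher (10.3%) and 0 lower, against the same shares of all genes. None was called with the length trend removed, in the 2-group fit or without the 3 libraries with low Bmp10. The desmosomal genes Dsp and Pkp2 were among the 3. The count of rises was 0 or 1 in 10 left-out runs, all but those without WT control replicates 1, 4 or 5. Without WT control replicate 2, 1 gene of this list was called higher and 2 lower. Connexin 43, Gja1 (0.36), did not pass.

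**Figure D4:**
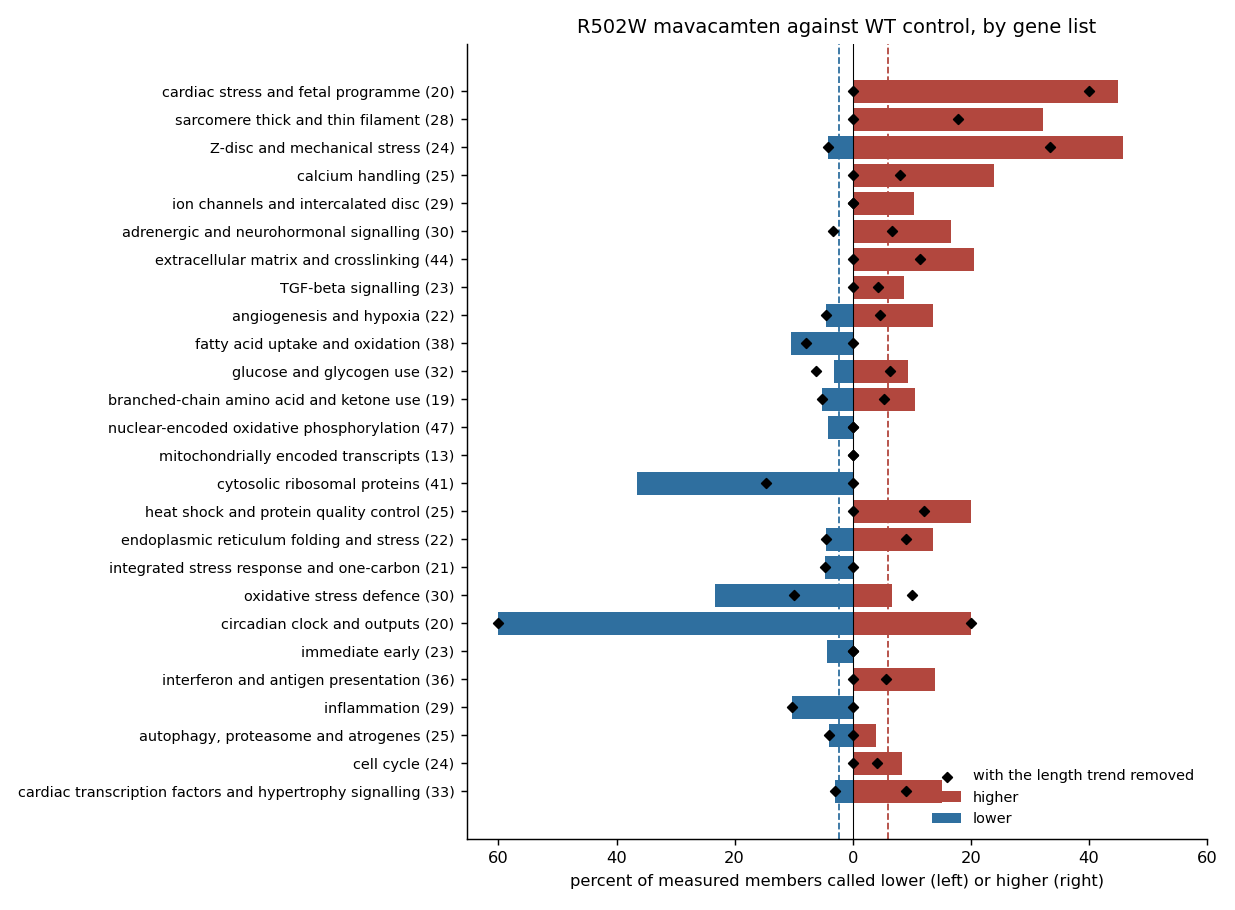
Percent of the measured members (number in brackets) of each of 26 gene lists called lower (left) or higher (right) in R502W mavacamten against WT control, with dashed lines at the 5.93% and 2.29% of all genes and diamonds for the values with the length trend removed. The clock list keeps its 12 falls and 4 rises with the trend removed, while the diamonds of the calcium, ion channel and ribosomal lists lie nearer to 0 than their bars.

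Among adrenergic and neurohormonal genes 5 of 30 rose and 0 fell (median 0.10), against 5.93% and 2.29% of all genes. With the length trend removed 2 rose and 1 fell. There was 1 rise in the 2-group fit and 1 without the 3 libraries with low Bmp10. The number that rose was 2 or 3 without WT control replicates 1, 2 or 3, R502W control replicates 1, 2 or 4 or R502W mavacamten replicates 1, 2 or 3. The largest rise kept in all 13 left-out runs was that of Edn3, which encodes endothelin 3, a vasoactive peptide. It was nearly silent in WT at 0.147, 0.24, 0.845, 0.63 and 0.567 CPM and reached 7.88, 5.41, 4.18 and 3.89 CPM in treated hearts (3.41 ± 0.36, edgeR adjusted p = 0.000315), with no overlap. Ednra, which encodes an endothelin receptor, rose by 0.56 ± 0.14. It lost that call without WT control replicates 1 or 2, R502W control replicate 2 or R502W mavacamten replicates 1, 2 or 3 (0.47 to 0.65). With the length trend removed Ednra lay at the threshold (0.50, edgeR adjusted p = 0.0503). The other endothelin receptor gene of the list, Ednrb, was not called. Grk5, a kinase that desensitises adrenergic receptors, went from 39.02 ± 3.51 to 53.6 ± 4.69 CPM (0.46 ± 0.0843, edgeR adjusted p = 0.00912) and kept its call throughout. In the list of cardiac transcription factors and hypertrophy signalling 5 of 33 rose and 1 fell (median 0.12), against the same shares of all genes. With the length trend removed 3 rose and 1 fell. In the 2-group fit 1 rose and 1 fell, and without the 3 libraries with low Bmp10 0 of either. Mapk3, the kinase ERK1, was the gene that fell (-0.40 ± 0.0849, edgeR adjusted p = 0.0159). The growth kinase Mtor rose by 0.46 ± 0.11 as counted and was not called with the trend removed (0.25). Its call also ended without R502W control replicate 2 or R502W mavacamten replicates 2, 3 or 4 (0.34 to 0.50). The number that rose was 3 without WT control replicate 3 or R502W mavacamten replicate 4, 2 without R502W control replicate 2 or R502W mavacamten replicates 1 or 3, and 1 without R502W mavacamten replicate 2.

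The matrix genes that rose were mostly collagens, among them both main chains of the basement membrane. Of 44 extracellular matrix genes 9 rose and 0 fell (median 0.24), against 5.93% and 2.29% of all genes. With the length trend removed 5 rose, and without R502W mavacamten replicate 2 the number was 4. The number was 4 in the 2-group fit and 2 without the 3 libraries with low Bmp10. Col4a1 and Col4a2, the chains of basement membrane collagen, rose by 0.86 ± 0.13 and 0.72 ± 0.12 (edgeR adjusted p = 0.0033 and 0.0061). For Col4a1 the WT libraries were at 219, 191, 260.0, 196 and 269.9 CPM and the treated libraries at 443, 466, 405 and 336 CPM, without overlap. Col6a3, of the microfibrils around cells, rose by 0.87 ± 0.16, and Col5a1, which nucleates fibrils, by 0.64 ± 0.12 (edgeR adjusted p = 0.00889 and 0.0109). Col5a3, another type V chain, was outside the list and named after its value was seen. It went from 15.6 ± 1.96 to 38.05 ± 5.08 CPM (1.29 ± 0.11, edgeR adjusted p = 0.000101). The main fibrillar collagens Col1a1 (89.7, 117, 158, 132 and 148 CPM in WT, 234, 175, 153 and 187 CPM treated, 0.54 ± 0.16, edgeR adjusted p = 0.0586) and Col3a1 (0.49 ± 0.18, edgeR adjusted p = 0.103) did not pass, and neither did Postn, a marker of activated fibroblasts (-0.033 ± 0.24). In Col1a1 the lowest treated library was replicate 3, which lay below the highest WT library. Adamts4, a protease of proteoglycans, was below 1 CPM in every WT library and at 1.69, 2.51, 1.204 and 1.03 CPM in treated hearts (2.16 ± 0.48), a call lost without R502W mavacamten replicate 2 (1.85 to 2.71). Col8a1 rose by 0.82 ± 0.21, and its call ended with the length trend removed (0.68), and in the runs lacking WT control replicates 1 or 4, R502W control replicate 2 or R502W mavacamten replicates 1, 2 or 3 (0.65 to 0.97).

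In TGF-beta signalling 2 of 23 genes (8.7%) rose and 0 fell, against 5.93% and 2.29% of all genes. The 2 were the receptor gene Bmpr2 (0.54 ± 0.12) and the matricellular gene Ccn1 (0.69 ± 0.17). The call of Bmpr2 ended with the length trend removed (0.17) and without R502W mavacamten replicates 2 or 3 (0.41 to 0.57). The call of Ccn1 ended without WT control replicates 1 or 3, R502W control replicate 2 or R502W mavacamten replicates 1 or 2 (0.40 to 0.77). No gene of this list was called in the 2-group fit or without the 3 libraries with low Bmp10. Of 22 angiogenesis genes 3 rose and 1 fell (median 0.18), against the same shares of all genes. The counts were 1 and 1 with the length trend removed and 0 and 1 in the 2-group fit. Without the 3 libraries with low Bmp10 they were 0 and 0. Vegfa, the main growth factor of vessels, was at 183, 113, 156, 171 and 167 CPM in WT and 237, 241, 271 and 229 CPM in treated hearts (0.63 ± 0.12, edgeR adjusted p = 0.00979). Its relative Pgf, placental growth factor, moved the other way, from 5.79, 5.46, 4.83, 4.302 and 4.03 to 2.25, 2.83, 1.6996 and 2.11 CPM (-1.13 ± 0.21, edgeR adjusted p = 0.00859). Neither gene overlapped between the groups. Kdr, the receptor of Vegfa, and Notch1 were raised by 0.63 ± 0.15 and 0.55 ± 0.12, and both calls ended with the length trend removed (0.45 and 0.24) and without R502W mavacamten replicates 2 or 3. The call of Kdr ended also without WT control replicate 3 or R502W mavacamten replicate 1 (ranges 0.50 to 0.71 and 0.42 to 0.60).

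The metabolic lists are set beside the 8.21% of all genes called, 5.93% higher and 2.29% lower. The share called was 10.5% in the fatty acid list, 12.5% in the glucose list and 15.8% in the branched-chain and ketone list. It was 4.26% among nuclear-encoded genes of oxidative phosphorylation. Without the 3 libraries with low Bmp10 0 genes of the fatty acid, glucose, branched-chain and ketone, and oxidative phosphorylation lists were called, and in the 2-group fit 2 of the first, 2 of the second and 0 of the others. Of 38 genes of fatty acid uptake and oxidation 4 fell and 0 rose (median -0.10), 3 with the length trend removed. Ucp2, a carrier of the inner mitochondrial membrane, was at 121, 225, 209, 151 and 191 CPM in WT and 110.1, 83.7, 71.7 and 89.3 CPM in treated hearts (-1.02 ± 0.17, edgeR adjusted p = 0.00657), with no overlap. The β-oxidation enzymes Acaa2 (-0.44 ± 0.12) and Eci2 (-0.31 ± 0.0848) lost their calls in 10 and 9 of the 13 left-out runs, respectively, and Acaa2 also with the length trend removed (ranges -0.55 to -0.36 and -0.38 to -0.28). For Acaa2 the runs that kept it were those without WT control replicate 2, R502W control replicate 2 or R502W mavacamten replicate 3, and for Eci2 those and the run without WT control replicate 5. The fatty acid transporter Cd36 (0.077) and the gate of mitochondrial import Cpt1b (0.086) did not pass. Of 47 nuclear-encoded genes of oxidative phosphorylation 2 fell and 0 rose (median -0.18), and 0 of either with the length trend removed, where the median was -0.052. The count was 0 without R502W control replicate 3 or R502W mavacamten replicates 1, 2 or 4, and 1 without WT control replicates 1 or 4, R502W control replicates 1 or 4 or R502W mavacamten replicate 3. No mitochondrially encoded transcript of 13 was called.

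Among 32 genes of glucose and glycogen use 3 rose and 1 fell (median 0.069), against 5.93% and 2.29% of all genes. In the run lacking R502W mavacamten replicate 3 the counts were 1 and 0. The count of falls was 0 also without WT control replicate 5 or R502W mavacamten replicates 1 or 4, and 2 without WT control replicate 2. Ppp1r3c, which brings phosphatase to glycogen, was at 79.3, 57.5, 73.7, 69.4 and 62.3 CPM in WT and 103, 112, 153 and 91.1 CPM in treated hearts (0.75 ± 0.15, edgeR adjusted p = 0.0119), without overlap. The genes for the enzymes that set fructose 2,6-bisphosphate differed by isoform: Pfkfb2, the heart form, rose by 0.74 ± 0.16, and Pfkfb1, the liver and muscle form, had -1.14 ± 0.28. The call of Pfkfb2 ended without R502W mavacamten replicate 3 (0.58 to 0.81), and that of Pfkfb1 without WT control replicate 5 or R502W mavacamten replicates 1, 3 or 4 (-1.38 to -0.98). The ketone enzyme Bdh1 rose by 1.000 ± 0.22, with a call lost without R502W mavacamten replicates 1 or 2 (0.79 to 1.15), and Bckdk, the kinase that turns off breakdown of branched-chain amino acids, fell (-0.25 ± 0.0604), lost without R502W mavacamten replicate 2 (-0.29 to -0.24).

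Cytosolic ribosomal protein genes lay lower in treated hearts. All 41 measured genes had a log2 value below 0 (from -0.68 to -0.16, median -0.36). By the test 15 fell and 0 rose, against 2.29% and 5.93% of all genes. With the length trend removed 6 fell (median -0.27). In the 2-group fit and without the 3 libraries with low Bmp10, 0 fell by the test (medians -0.39 and -0.43). Their summed level was 7048 to 10658 CPM in WT and 6141 to 6436 CPM in treated hearts, so the groups did not overlap. The highest WT library was replicate 2, the one with thymus genes. Without WT control replicate 2, 24 genes were called lower. The number was 8 without R502W control replicates 1 or 3, and 7, 3, 5 and 9 without R502W mavacamten replicates 1, 2, 3 and 4. These genes have many processed pseudogenes, among which the counting could divide reads. Rpl3l, the ribosomal protein specific to muscle, did not pass (-0.28).

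Chaperone genes were higher in part. Of 25 heat shock and protein quality genes 5 rose and 0 fell (median 0.21), against 5.93% and 2.29% of all genes. With the length trend removed 3 rose, and 0 in the 2-group fit or without the 3 libraries with low Bmp10. The number that rose was 0 without R502W mavacamten replicates 1, 2 or 3, 1 without WT control replicate 3 or R502W control replicate 2, 2 without R502W control replicates 1 or 3, and 3 without WT control replicates 1, 2 or 4. Hsph1, a disaggregase partner of Hsp70, was at 34.5, 31.9, 33.3, 34.3 and 29.8 CPM in WT and 53.3, 40.5, 42.4 and 40.5 CPM in treated hearts (0.43 ± 0.10, 0.30 with the length trend removed and then not called, range 0.30 to 0.46 over the left-out runs), against 71.2, 63.4, 56.4 and 54.2 CPM in untreated R502W hearts. In the endoplasmic reticulum list 3 of 22 rose and 1 fell (median 0.054), against the same shares of all genes. With the length trend removed the counts were 2 and 1, and in the left-out runs 2 or 3 and 1. They were 1 and 1 in the 2-group fit and 0 and 1 without the 3 libraries with low Bmp10. Hyou1, a chaperone of the reticulum, went from 39.5 ± 3.099 to 57.1 ± 4.59 CPM (0.53 ± 0.0835, edgeR adjusted p = 0.00411), and Atf6, a sensor of misfolded protein, from 86.8 ± 16.4 to 138 ± 7.19 CPM (0.67 ± 0.13, edgeR adjusted p = 0.0108). Herpud1, a part of the reticulum's disposal route, fell (-0.61 ± 0.10, edgeR adjusted p = 0.00526).

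In oxidative stress defence 7 of 30 genes were called lower, 2 higher and 21 not called (median -0.19), against 2.29% lower and 5.93% higher among all genes. With the length trend removed 3 were lower and 3 higher (median -0.071), in the 2-group fit 2 and 1, and without the 3 libraries with low Bmp10 0 and 0. The lower count was 4 without WT control replicates 3 or 5, and 3 without R502W mavacamten replicates 2 or 3. The higher count was 1 without R502W control replicate 2 or R502W mavacamten replicates 1, 3 or 4, and 0 without R502W mavacamten replicate 2. Sod1, the cytosolic superoxide dismutase, was at 202, 214, 178, 178 and 179 CPM in WT and 128, 153, 149 and 161 CPM in treated hearts (-0.36 ± 0.0839, edgeR adjusted p = 0.0229). Metallothionein Mt1 (-0.58 ± 0.11) and haem oxygenase Hmox1 (-0.71 ± 0.14) fell as well (edgeR adjusted p = 0.0112 and 0.0112), and none of the 3 genes overlapped between the groups. Nqo1, a quinone reductase controlled by NRF2, was 1 of the 2 that rose. It was at 28.4, 30.4, 26.4, 26.2 and 34.3 CPM in WT, 25.7, 27.9, 34.5 and 32.5 CPM in untreated R502W hearts and 44.2, 51.6, 40.3 and 37.1 CPM in treated hearts, so that all treated libraries lay above all others. Treated hearts exceeded WT by 0.57 ± 0.12 (edgeR adjusted p = 0.0136), a call lost without R502W mavacamten replicate 2 (0.46 to 0.63). Untreated R502W hearts over WT had 0.048 (edgeR adjusted p = 0.824), and treated over untreated R502W hearts had 0.52 (edgeR unadjusted p = 0.00097, not called after adjustment).

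The circadian clock was the list with the largest share of called genes among the 26. The clock of a cell runs on a loop in which the activators Arntl (BMAL1) with Clock or Npas2 switch on Per and Cry genes through E-box letters, the Per and Cry proteins then block the activators, and the nuclear receptor Nr1d1 represses Arntl through ROR elements. Of 20 measured genes 4 rose and 12 fell, against 5.93% and 2.29% of all genes, the same 4 and 12 with the length trend removed, 4 with 9 to 12 in the left-out runs, 3 with 10 in the 2-group fit, and 3 with 7 without the 3 libraries with low Bmp10. The sources used here do not give the time of day at which each heart was collected, and its part in the result was not tested. Hearts taken at different times of day and a changed clock cannot be told apart.

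Promoter windows of 4 clock genes are shown because they hold the letters through which the loop is known to act, in capitals: the E-box CACGTG in Ciart (chr3:95882179-95882478, minus strand), the D-box TTATGTAA in Per3 (chr4:151044616-151044915, minus strand) and the ROR element TAGGTCA, or TGACCTA as read on the other strand, in Arntl (chr7:113207261-113207560, plus strand) and Nfil3 (chr13:52980990-52981289, minus strand). They are 250 bases before to 50 after the start, 5′ to 3′ along each gene, from RefSeq on GRCm38.p6.
Ciart: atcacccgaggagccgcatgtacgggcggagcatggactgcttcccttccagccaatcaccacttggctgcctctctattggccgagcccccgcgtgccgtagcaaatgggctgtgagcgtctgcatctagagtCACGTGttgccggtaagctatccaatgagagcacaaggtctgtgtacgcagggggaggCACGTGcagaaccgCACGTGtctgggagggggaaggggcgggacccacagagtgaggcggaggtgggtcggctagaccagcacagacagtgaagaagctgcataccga
Per3: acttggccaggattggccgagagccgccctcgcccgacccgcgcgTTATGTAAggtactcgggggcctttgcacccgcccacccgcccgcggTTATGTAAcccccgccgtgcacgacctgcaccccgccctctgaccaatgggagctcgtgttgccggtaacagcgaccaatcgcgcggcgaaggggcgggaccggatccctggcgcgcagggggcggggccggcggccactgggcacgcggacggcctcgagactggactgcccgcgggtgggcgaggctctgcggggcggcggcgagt
Arntl: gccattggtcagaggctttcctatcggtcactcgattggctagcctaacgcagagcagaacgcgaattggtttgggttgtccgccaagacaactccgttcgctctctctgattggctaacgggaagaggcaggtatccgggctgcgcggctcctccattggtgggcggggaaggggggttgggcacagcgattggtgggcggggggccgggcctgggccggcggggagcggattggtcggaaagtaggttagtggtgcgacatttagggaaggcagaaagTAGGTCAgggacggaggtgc
Nfil3: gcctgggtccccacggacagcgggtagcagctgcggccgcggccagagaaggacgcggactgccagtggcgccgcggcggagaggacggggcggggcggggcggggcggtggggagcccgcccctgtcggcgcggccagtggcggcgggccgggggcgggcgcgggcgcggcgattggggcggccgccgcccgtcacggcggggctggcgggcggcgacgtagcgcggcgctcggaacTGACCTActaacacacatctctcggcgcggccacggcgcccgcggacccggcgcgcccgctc
On either strand and with no overlap between motifs, CACGTG was in 7.15% of all windows, TTATGTAA in 0.938% and TAGGTCA in 2.61%. Counted per gene, as the members below are, the shares were 8.09%, 1.11% and 2.97%. Of the 12 genes that fell 10 had a window, and 4 of these held CACGTG (Per1, Tef, Ciart and Bhlhe41), 1 held TTATGTAA (Per3) and 0 held TAGGTCA. Of the 4 genes that rose all had a window, 2 of them with TAGGTCA (Arntl and Nfil3) and 0 with CACGTG. Of 3 uncalled members with a window 2 held CACGTG (Cry1 and Klf15).

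Among the activators, Arntl (ENSMUSG00000055116) was at 2.57, 6.96, 4.95, 2.31 and 2.39 CPM in WT and 20.03, 18.2, 24.6 and 16.8 CPM in treated hearts (2.37 ± 0.28, edgeR adjusted p = 0.000893). Every treated library exceeded every WT library. Npas2 rose by 1.66 ± 0.23 and Clock by 0.85 ± 0.16 (edgeR adjusted p = 0.00177 and 0.00898), and Nfil3, a repressor at D-box letters, by 1.52 ± 0.15 (edgeR adjusted p = 0.00019). Among the repressors of the loop Per2 was at 28.2, 20.9, 23.5, 33.6 and 27.4 CPM in WT and 8.27, 6.31, 4.46 and 9.03 CPM in treated hearts (-1.92 ± 0.19, edgeR adjusted p = 0.00019), and Per3 had -1.19 ± 0.15. Per1 had -1.56 ± 0.33, with a call lost without R502W mavacamten replicate 2 (-1.97 to -1.44). Cry2 fell by a smaller amount (-0.51 ± 0.0857), and Cry1 did not pass (-0.057). Nr1d1, the repressor of Arntl, had -0.60 ± 0.11 (edgeR adjusted p = 0.0093).

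Bhlhe40, a repressor of the loop, and Nr1d2, a relative of Nr1d1, were called lower with overlapping groups, though not in every left-out run. The outputs lay lower. Ciart, a repressor driven by the loop, had the smallest adjusted p of all 15000 genes. It was at 21.3, 14.9, 10.99, 16.7 and 16.3 CPM in WT and 2.53, 1.87, 2.12 and 1.89 CPM in treated hearts (-2.92 ± 0.23, edgeR adjusted p = 8.2e-05). Dbp, an activator at D-box letters, was at 184, 191, 153, 185 and 204 CPM in WT and 44.96, 52.7, 38.2 and 30.7 CPM in treated hearts (-2.14 ± 0.19, edgeR adjusted p = 0.000128). No treated library of either gene came near WT. Its relatives Hlf and Tef had -1.16 ± 0.15 and -0.90 ± 0.0915, and Bhlhe41, another repressor of the loop, had -0.78 ± 0.13. Klf15, a clock-linked regulator of metabolism, did not pass (-0.28, edgeR adjusted p = 0.0987). Untreated R502W hearts, which share the WT libraries in their comparison, had 2.43 for Arntl, -2.88 for Ciart, -2.18 for Dbp and -1.65 for Per2 over WT. Within R502W hearts the treated minus untreated values were -0.064 (95% interval -0.66 to 0.54) for Arntl and -0.045 (-0.57 to 0.48) for Ciart.

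**Figure D5:**
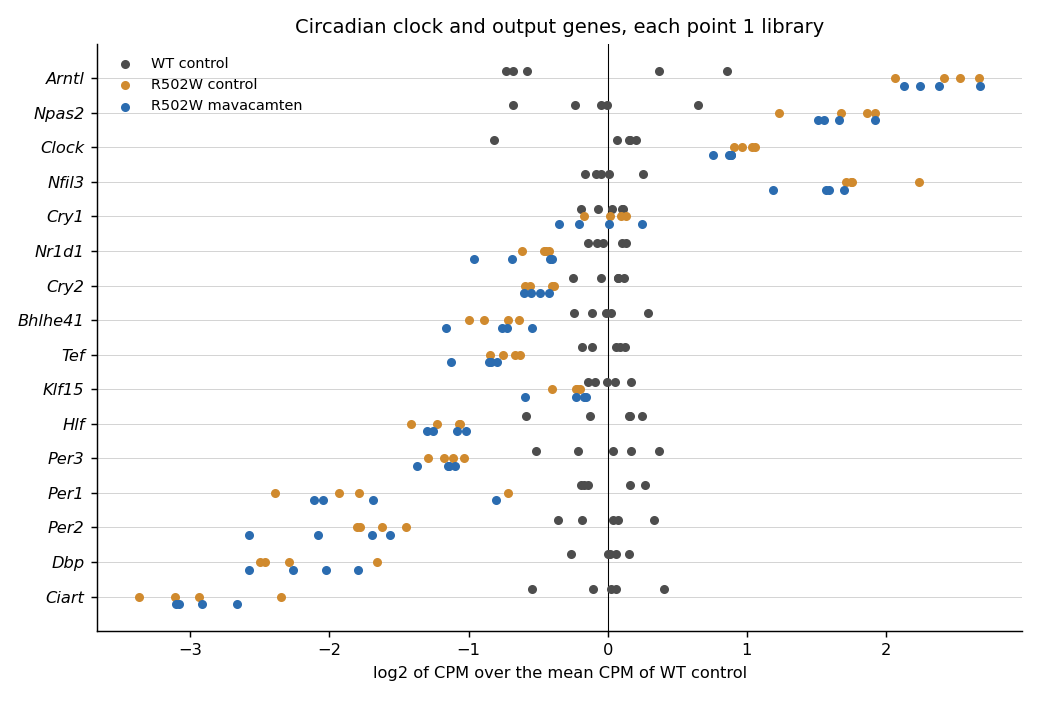
Log2 of each library's CPM over the mean CPM of WT control, for 16 clock and output genes in the 5 WT, 4 untreated R502W and 4 treated R502W libraries. Treated libraries lie right of all WT libraries for Arntl, Npas2, Clock and Nfil3, left of them for Nr1d1 and for Cry2 down to Ciart, and on both sides of them for Cry1.

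Interferon-induced genes were high in 1 treated library. Of 36 measured genes 5 were called higher and 0 lower, and the list's median was 1.08 (5.93% and 2.29% of all genes were called). With the length trend removed 2 were called, Rsad2 and Igtp. Igtp, a GTPase that defends against intracellular microbes, was at 13.7, 28.6, 12.8, 12.3 and 12.4 CPM in WT and 15.2, 21.2, 13.95 and 1139 CPM in treated hearts, with treated replicate 4 far above WT and the other 3 within the WT range. Over the same 4 treated libraries Iigp1, another such GTPase, was at 29.7, 48.8, 31.02 and 1404 CPM and the chemokine Cxcl9 at 2.98, 5.66, 3.82 and 91.5 CPM, replicate 4 being the highest for both. Without R502W mavacamten replicate 4 the list's median was -0.23 and 1 gene was called, and the log2 values of Igtp, Iigp1, Irgm2 and Gbp7 went from 4.22, 3.52, 2.95 and 2.64 to 0.044, 0.12, 0.13 and 0.58, none of them called. Each of those 4 calls was also lost in at least 6 further left-out runs, and the number called was 1 without R502W control replicate 2 or any WT library other than replicate 2, and 2 without WT control replicate 2 or R502W control replicates 1, 3 or 4.

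The gene called without that library was Rsad2, viperin, an antiviral enzyme. It was at 8.51, 5.82, 4.65, 7.398 and 6.24 CPM in WT and 14.6, 19.8, 11.97 and 37.1 CPM in treated hearts, all treated libraries above all WT libraries, with 1.68 ± 0.30 (edgeR adjusted p = 0.00824) and 1.21 without replicate 4 (edgeR adjusted p = 0.015). Igtp's promoter window (chr11:58199306-58199605, plus strand, RefSeq, GRCm38.p6) is shown for its interferon-response letters, TTTC, any 2 bases and TTTC on either strand, in capitals.
Igtp: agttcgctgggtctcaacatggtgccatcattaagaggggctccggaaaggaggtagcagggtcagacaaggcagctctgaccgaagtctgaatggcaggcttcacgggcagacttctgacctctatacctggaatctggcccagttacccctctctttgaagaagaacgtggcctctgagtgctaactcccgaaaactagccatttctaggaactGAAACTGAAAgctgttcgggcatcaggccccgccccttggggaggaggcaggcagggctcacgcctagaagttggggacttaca
These letters were in 3.44% of all windows and, counted per gene, in 3.99% of genes. They were in 4 of the 4 raised members with a window (Rsad2, Igtp, Irgm2 and Gbp7) and in 10 of 24 uncalled ones. Of 29 inflammation genes 3 fell and 0 rose (median -0.17), against 2.29% and 5.93% of all genes. There was 1 fall in the 2-group fit and 0 without the 3 libraries with low Bmp10. The genes that fell were the alarmin Il33 (-1.26 ± 0.23, edgeR adjusted p = 0.00849), the chemokine Cxcl14 (-0.94 ± 0.19) and Ccl11, eotaxin (-1.07 ± 0.24). The call of Ccl11 ended without R502W mavacamten replicates 2 or 3 (-1.32 to -0.94).

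The largest changes included pseudogenes and unnamed transcripts. The pseudogene Rpl10a-ps1 was at 0 in all 5 WT libraries and at 19.2, 1.22, 16.1 and 12.1 CPM in treated hearts, at least 65.7-fold higher against a floor of 3 counts per WT library. One untreated R502W library was also at 0 (10.6, 0, 5.29 and 32.5 CPM), and reads of a processed pseudogene can come from its parent. The call ended without R502W mavacamten replicates 1 or 3. F830016B08Rik, a predicted interferon-inducible GTPase (4.22, 11.005, 7.22 and 817 CPM in treated hearts), and Cd274, the checkpoint ligand PD-L1 (11.6, 12.6, 10.7 and 328 CPM), had their rise of 6.57 and 3.24 in replicate 4, and without it they had 1.72 and 0.24, neither called. The call of Cd274 ended with the length trend removed and in 10 left-out runs in all, the exceptions being those without R502W mavacamten replicates 1, 2 or 3. Ifi213, an interferon-inducible DNA sensor (2.22), was still called without replicate 4 (1.12, edgeR adjusted p = 0.0467). Zfp968, a zinc finger gene, went from 0.734 ± 0.405 to 3.01 ± 0.856 CPM (2.04 ± 0.39, edgeR adjusted p = 0.011). Leo1, of the PAF1 elongation complex, rose by 1.07 ± 0.10 (edgeR adjusted p = 0.00019) and was named after its value was seen. The unnamed or predicted transcripts 4632404M16Rik (2.09 ± 0.47) and Gm21451 (2.40 ± 0.62) completed the 12 largest rises with Myh7, Edn3, Acta1, Arntl and Gbp7. That ranking, like that of the 12 falls, covers called genes averaging 1 CPM or more whose groups did not overlap. The call of 4632404M16Rik ended without R502W mavacamten replicates 2 or 3 (1.75 to 2.37), and that of Gm21451 without R502W control replicate 2 or R502W mavacamten replicates 2, 3 or 4 (2.07 to 2.62).

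The largest fall was that of Amd2, a copy of the polyamine enzyme gene Amd1. Amd2 was at 22.2, 14.5, 19.1, 8.87 and 6.37 CPM in WT, 0.225, 0, 0.212 and 0.108 CPM in treated and 0.523, 0.389, 17.3 and 17.5 CPM in untreated R502W hearts (-6.62 ± 1.27 for treated over WT, edgeR adjusted p = 0.0109). The treated libraries were near 0 and the untreated R502W libraries split, 2 near 0 and 2 within the WT range. Amd1 did not pass (-0.062), the sum of both genes was 92.9 to 128 CPM in WT and 80.6 to 98.2 CPM in treated hearts, and the division of reads between near-identical copies is uncertain. After Amd2 and the clock genes Ciart, Dbp, Per2 and Per1, the 12 largest falls included those of Mthfd1l, a mitochondrial enzyme of one-carbon metabolism (-1.64 ± 0.37), Ltc4s, which makes leukotriene C4 (-1.35 ± 0.28), Il33 and 3 unnamed or predicted transcripts, Gm5790, Gm40604 and 1700088E04Rik (-1.49, -1.43 and -1.30). The call of Mthfd1l ended without R502W mavacamten replicates 2 or 3 (-1.83 to -1.44) and that of Gm40604 with the length trend removed and in 10 left-out runs, all but those without WT control replicate 2, R502W control replicate 3 or R502W mavacamten replicate 3 (-1.81 to -1.26).

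Cell type markers are set beside the 8.21% of all genes called. The share called was 6.67% of endothelial and of macrophage markers, 15.4% of mural and 30.8% of ventricular markers. Of 14 fibroblast markers 0 were called (median -0.12), of 15 endothelial markers 1 (Kdr), of 13 mural markers 2 higher (Cspg4 and Notch3, 0 with the length trend removed or without WT control replicate 1, R502W control replicate 2 or R502W mavacamten replicates 1, 2 or 3), of 15 macrophage markers 1 higher (Cx3cr1, 0.91 ± 0.24) and of 14 atrial markers 0 (median -0.21). The call of Cx3cr1 ended in 8 left-out runs, those without WT control replicates 1 to 4, R502W control replicate 2 or R502W mavacamten replicates 1, 2 or 3 (0.70 to 1.04). In the ventricular list 4 of 13 rose, Mybpc3, Myh6, Ttn and Ryr2, and Mybpc3 alone with the length trend removed. The log2 values of the 13 ran from -0.18 to 0.86 (median 0.21). Over the left-out runs 1 to 4 of them rose, with 1 in the run lacking WT control replicate 3. In the 2-group fit 0 ventricular and 0 mural markers were called, and with the replicate number as a block 0 and 1. Markers of tissues that can adhere to a heart had medians below 0. The 16 measured lymphocyte markers, none called, had a median of -2.002 and summed to 23.7 to 1075 CPM in WT and 21.3 to 213 CPM in treated hearts. That median was -0.56 without WT control replicate 2. The 11 mesothelial markers had a median of -0.96 with 1 lower (Wt1, -0.71 ± 0.19), and summed to 85.7 to 299 CPM in WT and 51.6 to 138 CPM in treated hearts. The call of Wt1 ended without WT control replicates 3 or 4, R502W control replicates 2 or 4 or R502W mavacamten replicates 1, 2 or 3 (-0.82 to -0.60). Of 24 cell cycle genes 2 rose and 0 fell, against 5.93% and 2.29% of all genes. The 2 were the inhibitor Cdkn1a (1.04 ± 0.18, edgeR adjusted p = 0.00752) and Ccnd2 (0.59 ± 0.13). The call of Ccnd2 ended without R502W mavacamten replicates 1 or 2 (0.46 to 0.66) and with the length trend removed (0.41). The cell cycle median was -0.46 and, without WT control replicate 2, -0.08. The proliferation gene Mki67 was at 4.25, 36.7, 7.304, 3.99 and 4.41 CPM in the 5 WT libraries, replicate 2 being the highest.

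Treated hearts were also set beside untreated R502W hearts, to see how far the drug group stood from its own genotype. No gene was called between these groups of 4 by edgeR (lowest adjusted p = 0.408), 525 genes had an unadjusted p under 0.05 (3.5%) and DESeq2 called 6. A p that misses the threshold does not show that the groups were alike, so intervals are given. For Myh7 the treated minus untreated value was -0.32 (95% interval -0.94 to 0.30), for Mybpc3 -0.028 (-0.29 to 0.24) and for Edn3 -0.45 (-1.14 to 0.25). In the stress, Z-disc and chaperone lists, which share members, 5 of 20, 4 of 24 and 2 of 25 genes had an edgeR unadjusted p under 0.05. Members with intervals that did not include 0 included Xirp2 -0.64 (-0.97 to -0.31), Ankrd23 -0.51 (-0.79 to -0.22), Rcan1 -0.66 (-1.01 to -0.30), Acta1 -0.78 (-1.36 to -0.19), Myot -0.51 (-0.87 to -0.14) and Hsph1 -0.47 (-0.70 to -0.24). Their edgeR unadjusted p were 0.00102, 0.00193, 0.00136, 0.013, 0.0102 and 0.00067. None of these passed over all genes. Unadjusted p under 0.05 were not confined to the stress, Z-disc and chaperone lists. The counts were 17 of 36 in the interferon list, which was high in 1 treated library, and 4 of 5 among the airway genes. They were 5 of 21 in the integrated stress response and one-carbon list. The endoplasmic reticulum and oxidative stress defence lists held 3 of 22 and 4 of 30. In the calcium handling, ion channel and ribosomal lists the count was 0. For Xirp2 the treated libraries, at 796, 608, 614 and 712 CPM, lay between those of WT, at 340.1, 212, 275, 312 and 323 CPM, and those of untreated R502W hearts, at 1250.0, 1091, 1073 and 842 CPM, without overlap with either.

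In the comparison of untreated R502W hearts with WT, which uses the same WT libraries, 8.63% of genes were called higher and 3.75% lower, and in the stress programme 10 of 20 were higher and 1 lower. The clock list had 4 higher and 12 lower there. A pair of genes stood near WT in treated hearts and away from it in untreated ones. Cpxm2, a carboxypeptidase-like matrix protein, was at 30.3, 24.1, 28.3, 22.8 and 33.7 CPM in WT, 48.9, 49.6, 62.5 and 46.8 CPM in untreated and 36.7, 26.4, 27.1 and 26.8 CPM in treated R502W hearts, so that 3 treated libraries lay within the WT range and replicate 1 just above it (0.071 over WT, edgeR adjusted p = 0.786). Ptgds, which makes prostaglandin D2, was at 114, 149, 84.6, 86.9 and 107 CPM in WT, 195, 208, 147 and 184 CPM in untreated and 127, 75.2, 83.3 and 90.3 CPM in treated R502W hearts (-0.20 over WT, edgeR adjusted p = 0.518). Both were named after their values were seen. Their treated minus untreated values were -0.83 (-1.14 to -0.52) and -0.96 (-1.38 to -0.55), with edgeR unadjusted p of 5.44e-05 and 0.0002 and adjusted p of 0.408 and 0.957.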

How the data were processed

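Poly(A)-selected RNA of whole mouse heart was measured in 13 libraries, each grouped by its labels. The deposited table holds expected counts per gene, estimated by the authors. The submitters' processing notes name RSEM, cutadapt, FastQC, DESeq2 and the build GRCm38, without saying at which step each was used. The file name gives Ensembl release 99. The aligner, versions and strand setting are not given in the sources used here, so reads of overlapping and near-identical genes may be divided differently. Of 55471 gene IDs, 55144 matched a symbol and coordinates and 327 did not, and 5.76% of values were fractional and were rounded to whole numbers.

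From these, R 4.3.3 with edgeR 4.0.16 kept 15000 genes (filterByExpr, minimum count 10, minimum total 15), scaled by TMM and fitted all 13 libraries in 1 quasi-likelihood model with group as the term, so that the 3 groups share 1 estimate of the spread. P-values were adjusted by Benjamini-Hochberg over all genes, and the code was tested on simulated data. The length trend was removed as an offset per library, a loess curve (span 0.5) of the log2 deviation on exonic length with a prior count of 2. The exact permutation tests used scipy 1.17.1. Totals of 15350601 to 19361104 counts limit the precision of genes under about 1 CPM. No pair of libraries within a group was a duplicate (22 pairs, chi-square per degree of freedom 7.31 to 103).

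Alternatives were RLE scaling, 2 other count filters, DESeq2 1.42.0, a fit of the compared groups alone, the length trend removed, the replicate number as a block, each library left out, and sets of libraries left out. The members and gene lists were chosen with earlier results of these data known. Genes named are 12 fixed cardiac genes, the 12 largest rises and 12 largest falls among called, non-overlapping genes averaging 1 CPM or more, and up to 4 called members per list with the smallest adjusted p. Any other gene named was chosen after its values were seen. Some genes that meet this rule are not reported here. Promoter windows were matched by symbol to RefSeq (GRCm38.p6). Proteins were not used here.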

Additional observations from a re-analysis of the deposited data

Results flagged for a closer look

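Of 304 sets of library values tested for a single library far from the rest of its group, 30 were marked. The sets came from genes picked for naming, many because they were called or changed most. They are not independent, so the 30 are not set against a chance rate. R502W mavacamten replicate 4 was far above the other treated libraries in 9 genes, many of them interferon-induced. It held 1139 CPM of Igtp, 1404 of Iigp1, 699 of Irgm2, 267 of Gbp7, 91.5 of Cxcl9, 403 of Gbp2, 328 of Cd274, 817 of F830016B08Rik and 12.5 of Ifi213, against a median of the other 3 libraries of 15.2 CPM for Igtp and 31.02 for Iigp1.

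R502W mavacamten replicate 1 was above the other treated libraries in Acta1 (1390.1 CPM), Ankrd23 (627), Ccn1 (91.6), Col5a1 (75.8), Hsph1 (53.3) and Cpxm2 (36.7) and below them in Clock (55.5). In R502W mavacamten replicate 2, Zfp968 (1.74 CPM) and Rpl30 (84.1) were low and Mki67 (9.20) was high, and in R502W mavacamten replicate 3 the protease inhibitor Timp1 was low (0.850 CPM).

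WT control replicate 2, the library with thymus genes, was above the other WT libraries in Rpl7 (419 CPM), Rps6 (352), Mki67 (36.7) and Igtp (28.6), and below them in Clock (18.6), Enah (72.5), Mtor (48.1) and Adcy5 (94.0). In the other WT libraries, Cxcl14 stood at 22.3 CPM in replicate 1 and Cx3cr1 at 5.36 CPM in replicate 5.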

How the results depend on the processing

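The count of genes higher in treated R502W hearts than in WT, 889, was 527 without the filter on low counts, 142 when only the groups compared were fitted, 377 with the length trend removed, 56 without the 3 libraries with low Bmp10 and 342 with the length trend removed and R502W mavacamten replicate 4 left out, an alternative chosen after seeing the data. The count lower, 343, was 213, 74, 255, 30 and 177 under the same alternatives and 749 with DESeq2. The count changed at least 2-fold, 159, was 57 with only the groups compared, 41 without the 3 libraries with low Bmp10 and 88 in the last alternative. Over the 13 left-out runs these counts ranged from 253 to 797, 106 to 416 and 91 to 146, the last falling to 105 without WT control replicate 3 or R502W control replicate 2 and to 91 without R502W mavacamten replicate 2. Other scaling, the stricter filter and leaving out WT control replicate 2 with R502W mavacamten replicate 4 kept all 3 counts within 1.5 times. The cause of the moves was not tested, except that fits of fewer libraries or groups have fewer degrees of freedom. Between treated and untreated R502W hearts 0 genes were called by edgeR in every alternative and 6 by DESeq2.

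Same-numbered treated and WT libraries did not deviate together (correlation -0.315 to 0.042), and 0 of 4 treated libraries correlated best with their own number. With the replicate block the counts were 268 higher, 81 lower and 82 at least 2-fold, and with the block and the length trend removed 111, 45 and 48. With the block, and with the block and the length trend removed, the falls among ribosomal genes (15) were 7 and 0, those in oxidative stress defence (7) 1 and 0, the rises in the Z-disc list (11) 5 and 5, in the sarcomere list (9) 3 and 2 and among chaperones (5) 0 and 0. Asph changed sign with the length trend removed (-0.066), with that and the replicate block (-0.092) and with that and without R502W mavacamten replicate 4 (-0.032), and Pfkp in the last (-0.00057).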
